A study of Xenopus laevis with 9 samples.

Results

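The ribosome biogenesis and nucleolar genes described here were 91 of the 15491 probe sets for frog transcripts on an Affymetrix Xenopus array. They were chosen by gene symbol alone, with the copy suffix .L or .S removed. The rule took dyskerin and its partners, genes named nop, noc, nol, utp or rrp, several WD-repeat proteins and DEAD-box helicases, subunits of RNA polymerase I, and nucleolar chaperones such as nucleolin and nucleophosmin. No measured value is part of the rule, but the list was drawn up with earlier results of these data known. The 91 probe sets stood for 58 genes, or 71 of 7531 named genes when the .L and .S copies that Xenopus laevis carries of many genes were counted apart. Each of the 91 had an identifier in the reference gene table for this frog.

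The arrays held total RNA of XLK-WG, an established line derived from kidney of Xenopus laevis. FICZ, a photoproduct of tryptophan, was given at 100 nM, TCDD, a dioxin, was given at 100 nM, and the control cells had the solvent DMSO alone. Every group was exposed for 3 h with the solvent at 0.25%, and each group had 3 arrays, called biological replicates in the labels. The comparisons ask how transcript levels respond to a pair of ligands of the aryl hydrocarbon receptor, a transcription factor that ligand binding activates. Replicates of a single line show the spread between its cultures. The DMSO titles carry the tag CH, whose meaning is unknown here, and whatever it marks cannot be told apart from the solvent group.

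Ribosomes are built mostly in the nucleolus. RNA polymerase I makes the precursor of the ribosomal RNAs, box C/D particles methylate it and box H/ACA particles turn chosen uridines into pseudouridine, while the small subunit processome folds and cuts it and another set of factors assembles the large subunit. Growing and dividing cells put much of their transcription into this work, and many of its genes are targets of the MYC transcription factor.

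Values are log2 signals after quantile normalization, which gives all 9 arrays the same distribution, so each level is relative to the rest of its array. A log2 change is the difference between 2 group means. Of the 91 member probe sets, 89 had a mean over the 9 arrays at or above the filter of 4.88 and were tested, with 11618 probe sets tested in all. The probe sets under the filter were the only one of npm2.S, an egg nucleoplasmin, and one of those of rrp9.S, and the highest value of either on any array was 4.37. The tested members had means between 5.86 and 12.5, with a median of 9.09, and no member was at the floor of the deposited values on any array. The median standard error of a change between 2 groups was 0.14 over all tested probe sets. Signals of different probe sets cannot be ranked against each other, and probe sets of the .L and .S copies may bind transcripts of both.

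Of the spread of arrays around their group means, 22.6% came from DMSO replicate 2, the largest share of the 9 arrays. Among epithelial markers, krt19 was high, with mean levels of 12.1 for its .S copy and 11.7 for its .L copy, while the probe sets of cdh1 and epcam lay under the filter, and krt8 and krt18 had no named probe set. The mesenchymal gene vim was high in both copies, with means of 13.1 and 11.9. Over whole lists, 7 of 16 epithelial, 9 of 14 fibroblast, 2 of 4 endothelial and blood, and 3 of 7 muscle and nerve probe sets passed the filter. The endothelial and blood list had a summed level of 8.34 to 8.46 in FICZ arrays, 7.39 to 7.64 in TCDD arrays and 7.20 to 7.44 in DMSO arrays, and 2 of its probe sets passed the filter. The change of pecam1.L was 1.35 with FICZ (limma adjusted p 1.0e-04) and 0.32 with TCDD (adjusted p 0.97), and that of the globin gene hba1.S was 0.49 with FICZ (adjusted p 0.76) and 0.19 with TCDD (adjusted p 0.97). The blood cell marker ptprc.L and the endothelial gene tek.S lay under the filter. The fibroblast list had a summed level of 13.91 to 13.96 in FICZ arrays, 13.88 to 14.03 in TCDD arrays and 13.97 to 14.00 in DMSO arrays, and the summed levels of the other two lists overlapped between FICZ and DMSO arrays. All 9 tested fibroblast probe sets had a negative change with FICZ against DMSO and 8 of the 9 with TCDD against DMSO, none past the test. With FICZ these changes ran from -0.59 and -0.47 for the 2 tested probe sets of the receptor gene pdgfra.L (adjusted p 0.18 and 0.70) to -0.026 and -0.024 for vim, whose signal is the highest of the list and weighs most in its summed level. The part of these lists in the results below was not tested.

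With FICZ, 77 of the 89 tested member probe sets, 86.5%, had a negative change from DMSO, and the median change was -0.12. Over all 11618 tested probe sets, 50.5% had a negative change. The members were all read on the same 3 FICZ and 3 DMSO arrays, so they are not independent observations. The changes of members ran from -0.47 for polr1b.L to 0.30 for nop14.L. By limma with Benjamini-Hochberg adjustment over all tested probe sets, 1 member was called, a dkc1.L probe set that fell, against a background of 0.603% of all probe sets called in either direction and 0.0775% called lower. Since earlier results of these data were known when the list was drawn up, this call is not independent support. At an unadjusted p under 0.05 there were 14 members lower and 1 higher, against 3.56% lower and 3.82% higher of all tested probe sets. The 3 FICZ arrays lay below all 3 DMSO arrays in 21 members, 23.6%, against 5.96% of all tested probe sets, and above them in 1 member, against 6.28%. An array left out can only keep or raise the count lower without overlap, so a rise by itself shows nothing about the members. With any FICZ or DMSO array left out the count rose, among members and among all tested probe sets. Without DMSO replicate 1 the number of members lower without overlap was 35, or 39.3% of members, against 12.2% of all tested probe sets. It was 26 without DMSO replicate 2 (29.2% against 13.2%) and 31 without DMSO replicate 3 (34.8% against 11.5%). Without FICZ replicates 1, 2 and 3 in turn it was 24 (27.0% against 9.12%), 25 (28.1% against 10.2%) and 30 (33.7% against 9.85%). In bulk RNA of this kind, fewer cells of a type and less RNA per cell cannot be told apart. Members with a mean of 8 or more numbered 69, of which 87.0% were negative with a median change of -0.13, whereas the 5009 tested probe sets at that level were 47.8% negative with a median of 0.01.

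**Figure D1:**
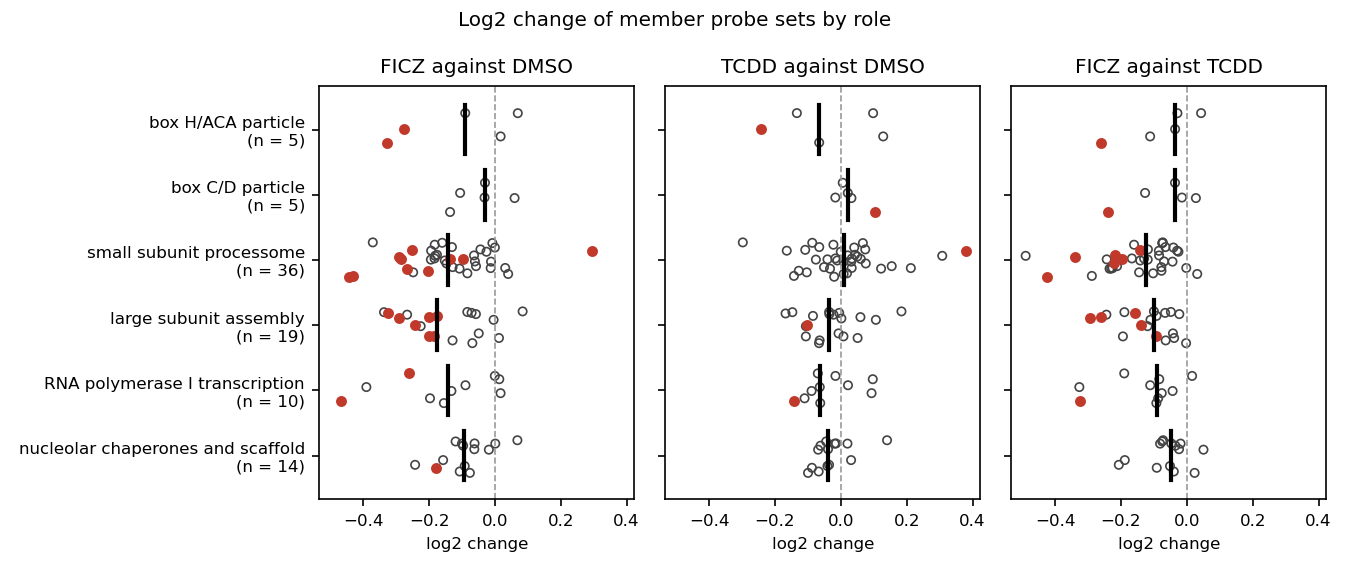
Log2 change of each of the 89 tested member probe sets (horizontal axis) in 6 role groups (rows), for FICZ against DMSO, TCDD against DMSO and FICZ against TCDD. Filled points are probe sets whose arrays did not overlap between the 2 groups, and the vertical bar is the group's median; most points lie left of 0 in both FICZ panels, and the medians for FICZ against DMSO run from -0.18 to -0.03.

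Dyskerin, encoded by dkc1, is the pseudouridine synthase of the box H/ACA particle and is also part of telomerase. It had 3 probe sets, all of the .L copy. The brightest read 11.19, 11.18 and 11.08 in FICZ arrays, 11.36, 11.47 and 11.41 in TCDD arrays, and 11.44, 11.44 and 11.56 in DMSO arrays. All 3 FICZ arrays were below the other 6, and the TCDD and DMSO arrays overlapped. The level averaged 11.15 ± 0.063 with FICZ, 11.42 ± 0.055 with TCDD and 11.48 ± 0.072 with DMSO (SD, n = 3 arrays each). It fell 1.26-fold with FICZ against DMSO, a log2 change of -0.33 (SE 0.063, 95% confidence interval -0.46 to -0.19) with a limma adjusted p of 0.032. An exact two-sided permutation test of 3 against 3 arrays gave p = 0.1, the smallest it can give.

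That call rested on a narrow margin. It was lost without DMSO replicate 1 (adjusted p 0.065), DMSO replicate 3 (0.11), FICZ replicate 1 (0.12), FICZ replicate 2 (0.13), FICZ replicate 3 (0.18), TCDD replicate 2 (0.052) or TCDD replicate 3 (0.079), while the change stayed between -0.35 and -0.29 in each of these fits. It was also lost on the deposited values without quantile normalization (0.076), with no variance trend (0.27), with no shared variance prior (0.17) and with FICZ and DMSO arrays fitted alone (0.09).

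The dkc1.L probe set next in brightness read 10.65, 10.49 and 10.59 in FICZ arrays, 10.44, 10.74 and 10.65 in TCDD arrays, and 10.75, 10.93 and 10.88 in DMSO arrays. Both ligand groups lay below all DMSO arrays and overlapped with each other. Its log2 change was -0.28 with FICZ (limma adjusted p 0.33) and -0.24 with TCDD (adjusted p 0.97). The dimmest dkc1.L probe set overlapped between all groups, at 5.53, 5.94 and 6.04 in FICZ arrays, 5.95, 5.74 and 5.69 in TCDD arrays, and 5.84, 5.65 and 6.30 in DMSO arrays. Its change of -0.09 with FICZ had a 95% confidence interval of -0.52 to 0.34, wide enough to hold the changes of both brighter probe sets.

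**Figure D2:**
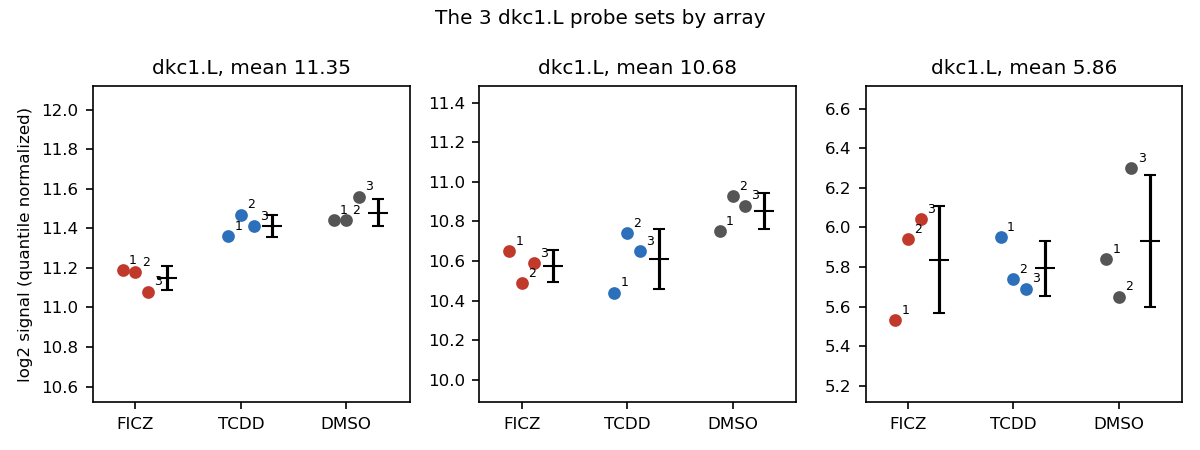
Log2 signal after quantile normalization (vertical axis, same span in each panel) of the 3 dkc1.L probe sets on the 9 arrays, numbered by replicate. Crosses and bars are the group mean and SD of 3 arrays; in the left panel the FICZ arrays (11.08 to 11.19) sit below all TCDD and DMSO arrays, in the middle panel both ligand groups sit below DMSO, and in the right panel the groups overlap.

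Of the partners of dyskerin, nop10, a small structural protein of the particle, was the one with named probe sets. The dimmer of the 2 nop10.S probe sets read 9.49, 9.54 and 9.45 in FICZ arrays, 9.46, 9.61 and 9.49 in TCDD arrays, and 9.58, 9.16 and 9.52 in DMSO arrays. The groups overlapped, and DMSO replicate 2 was the lowest of the 9. The dimmer and the brighter nop10.S probe set had changes of 0.07 and 0.02 with FICZ, with 95% confidence intervals of -0.17 to 0.31 and -0.18 to 0.21, and both were below 0 without DMSO replicate 2, at -0.06 for each.

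The box C/D particle had 5 tested probe sets, 4 of them negative with FICZ against DMSO, with a median of -0.03. None was without overlap, against 5.96% lower and 6.28% higher of all tested probe sets, and 5 are too few to compare shares. The smallest p of the group was that of nop58.S, a core protein of the particle, at 11.21, 10.88 and 11.08 in FICZ arrays, 11.26, 11.28 and 11.35 in TCDD arrays, and 11.24, 11.12 and 11.22 in DMSO arrays. FICZ and DMSO arrays overlapped, and the TCDD arrays lay above all 6 others. The change with FICZ was -0.14 (adjusted p 0.75). The methyltransferase fibrillarin, fbl.S, had 3 probe sets with changes of -0.03, -0.03 and 0.06.

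The small subunit processome, which binds the precursor while it is being transcribed, had 36 tested probe sets. With FICZ against DMSO 33 of them were negative, with a median of -0.14, 0 were called, 9 were lower without overlap, against 5.96% of all tested probe sets, and 1 was higher without overlap, against 6.28%. The copy utp25.S, whose zebrafish counterpart is needed for growth of digestive organs, read 7.73, 7.45 and 7.78 in FICZ arrays, 7.98, 8.24 and 8.01 in TCDD arrays, and 8.15, 8.09 and 8.05 in DMSO arrays. Its FICZ arrays were below the other 6, and its TCDD and DMSO arrays overlapped. The change with FICZ was -0.44 (SE 0.12, adjusted p 0.22).

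The probe sets of the .L copy of utp25 did not all separate the groups. One read 6.97, 6.94 and 6.95 in FICZ arrays, 7.04, 7.11 and 7.14 in TCDD arrays, and 7.13, 7.47 and 7.01 in DMSO arrays. FICZ arrays were the 3 lowest, and the change from DMSO was -0.25 (adjusted p 0.72). The other probe sets of utp25.L overlapped between FICZ and DMSO arrays, each with a change of -0.18 and a confidence interval that also held 0.

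The WD-repeat protein wdr3, a scaffold of the processome, read 9.32, 9.10 and 9.46 in FICZ arrays, 9.34, 9.76 and 9.65 in TCDD arrays, and 9.63, 9.97 and 9.58 in DMSO arrays for its .S copy. FICZ arrays lay below all DMSO arrays and overlapped with TCDD arrays. The change of wdr3.S with FICZ was -0.43 (SE 0.14, adjusted p 0.33).

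Another 12 member probe sets that were lower without overlap with FICZ against DMSO are named here after their values were seen. In the processome they were wdr43.L (-0.29), utp15.S (-0.28), wdr43.S (-0.27), nol11.S (-0.20), utp4.L (-0.14) and ddx47.L (-0.10). The genes wdr43, utp15, nol11 and utp4 encode proteins of the subcomplex that is tied to transcription of the precursor, and ddx47 encodes a helicase. Their adjusted p values with FICZ lay between 0.53 for wdr43.S and 0.84 for ddx47.L, so none passed the test.

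Among the processome probe sets, nop14.L, whose yeast counterpart is needed to make the small subunit, was the one higher without overlap. The brighter of its 2 probe sets read 6.93, 7.24 and 7.19 in FICZ arrays, 7.09, 7.30 and 7.22 in TCDD arrays, and 6.91, 6.64 and 6.92 in DMSO arrays. Arrays of both ligands were above all DMSO arrays, narrowly so for FICZ replicate 1. The change was 0.30 with FICZ (adjusted p 0.65), and the dimmer nop14.L probe set had a change of 0.03 with a confidence interval of -0.45 to 0.51.

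Large subunit assembly had 19 tested probe sets. With FICZ against DMSO 17 were negative, with a median of -0.18, 0 were called and 7 were lower without overlap, against 5.96% of all tested probe sets. The helicase ddx18, which acts on precursors of the large subunit, had 4 probe sets of the .L copy, all negative with FICZ, at -0.33, -0.29, -0.27 and -0.19. The first of these read 8.94, 8.95 and 8.96 in FICZ arrays, 9.06, 9.20 and 9.07 in TCDD arrays, and 9.10, 9.40 and 9.32 in DMSO arrays. The next, with the change of -0.29, read 8.79, 8.79 and 8.83 in FICZ arrays, 9.02, 9.21 and 9.06 in TCDD arrays, and 9.15, 9.13 and 9.01 in DMSO arrays. In both, the FICZ arrays lay close together below the other 6, and TCDD and DMSO arrays overlapped. The adjusted p values with FICZ against DMSO were 0.32 and 0.36, and 3 of the 4 ddx18.L probe sets were lower without overlap.

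The remaining large subunit probe sets without overlap were bop1.L (-0.24), rrp1b.L (-0.20), gnl3.L (-0.20) and bop1.S (-0.18). Bop1 acts with pes1 in a complex needed to process the large subunit's RNAs, and gnl3 encodes nucleostemin, a nucleolar GTP-binding protein abundant in stem cells. For bop1.L the FICZ arrays read 9.20, 9.36 and 9.29, the TCDD arrays 9.42, 9.45 and 9.40, and the DMSO arrays 9.46, 9.63 and 9.49. The 3 groups followed each other without overlap, FICZ lowest and DMSO highest. The adjusted p values of these 4 probe sets ran from 0.50 to 0.74.

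**Figure D3:**
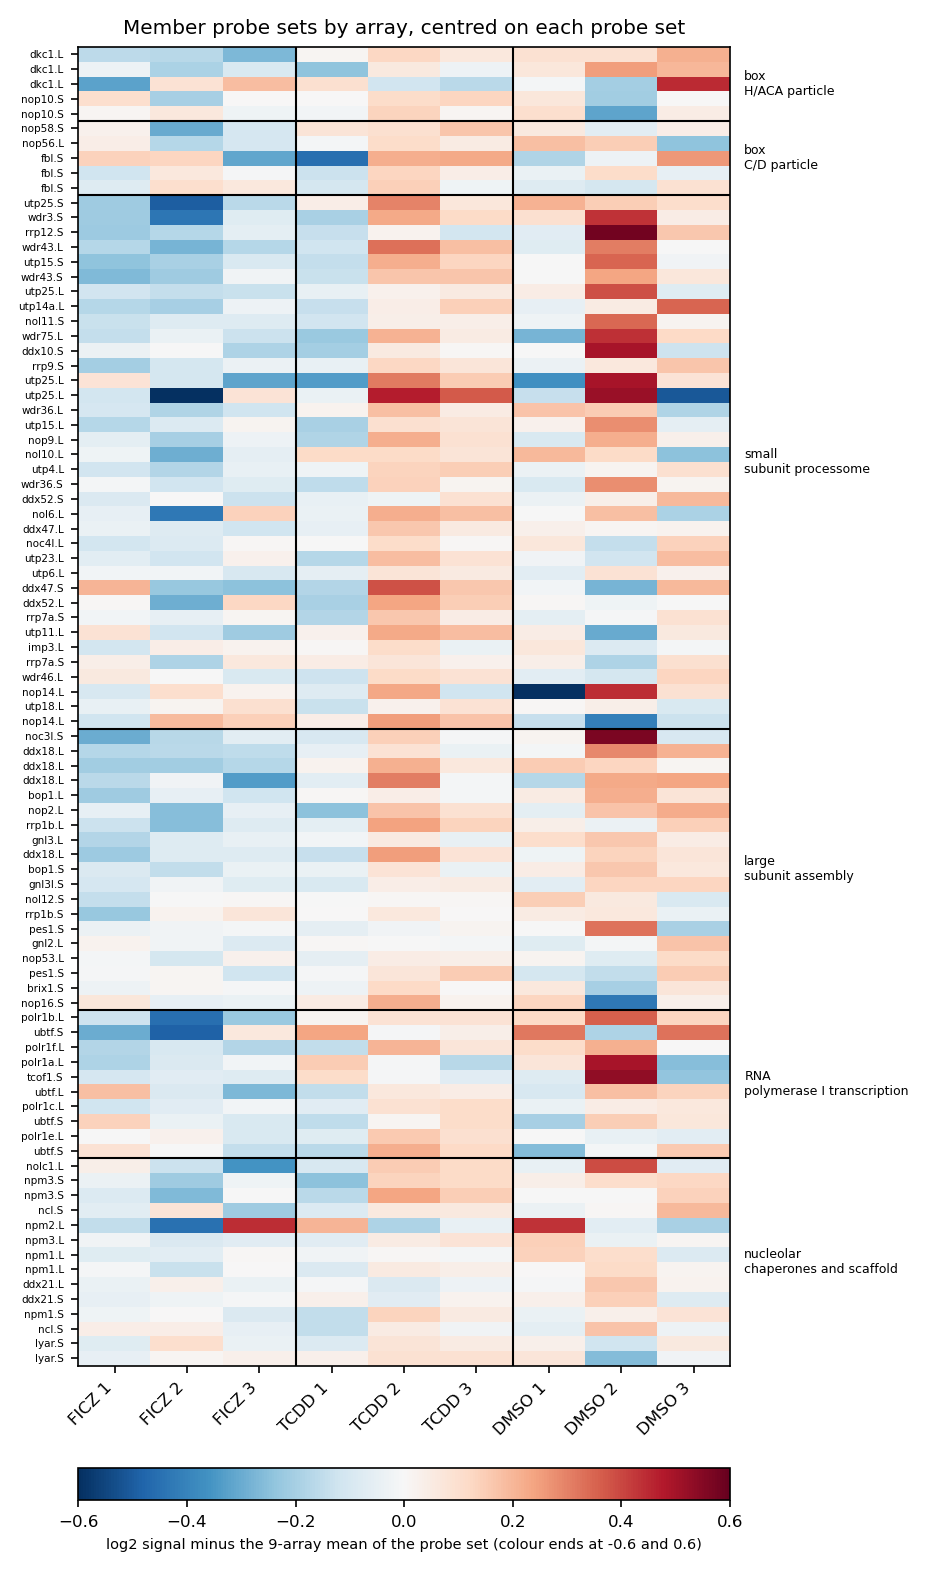
Log2 signal of each tested member probe set (rows, by role and then by change with FICZ) on each of the 9 arrays (columns), minus the probe set's mean over the 9 arrays; the colour scale ends at -0.6 and 0.6. Blue is below and red above that mean; most rows are blue or pale in the FICZ columns, TCDD replicate 1 is bluer than the other TCDD columns, and DMSO replicate 2 holds many of the deepest red cells.

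RNA polymerase I and its factors had 10 tested probe sets, 8 of them negative with FICZ against DMSO, with a median of -0.14, 0 called and 2 lower without overlap, against 5.96% of all tested probe sets. The second-largest subunit of RNA polymerase I, which forms the catalytic core with the largest, is encoded by polr1b. For polr1b.L the levels were 7.20, 6.87 and 7.10 in FICZ arrays, 7.34, 7.41 and 7.41 in TCDD arrays, and 7.44, 7.68 and 7.45 in DMSO arrays. Again the 3 groups followed each other without overlap, FICZ lowest and DMSO highest. Its change with FICZ was -0.47, the most negative among the members in that comparison (SE 0.13, 95% confidence interval -0.74 to -0.20, adjusted p 0.19). The largest subunit gene, polr1a.L, had a change of -0.20 with FICZ (adjusted p 0.82) between groups that overlapped. The subunit gene polr1f.L was also lower without overlap, with a change of -0.26 (adjusted p 0.55). The 4 probe sets of ubtf, which encodes the factor that holds ribosomal genes open for the polymerase, had changes from -0.39 to 0.02 and overlapped between FICZ and DMSO arrays.

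Nucleolar chaperones and scaffold proteins had 14 tested probe sets. With FICZ against DMSO 12 were negative, with a median of -0.09, 0 were called and 1 was lower without overlap, or 7.14%, near the 5.96% of all tested probe sets. That probe set was of npm3.S, a relative of nucleophosmin (-0.18, adjusted p 0.73). The smallest p of the group was that of nolc1.L, a chaperone of small nucleolar particles, at 9.76, 9.60 and 9.37 in FICZ arrays, 9.63, 9.88 and 9.84 in TCDD arrays, and 9.68, 10.12 and 9.66 in DMSO arrays. FICZ replicate 1 lay within the DMSO arrays, and the change was -0.24 (adjusted p 0.73). The 3 nucleophosmin probe sets of npm1.L and npm1.S had changes of -0.10, -0.09 and -0.06 with FICZ, and the 2 nucleolin probe sets of ncl.S had -0.12 and -0.02, all between groups that overlapped.

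**Figure D4:**
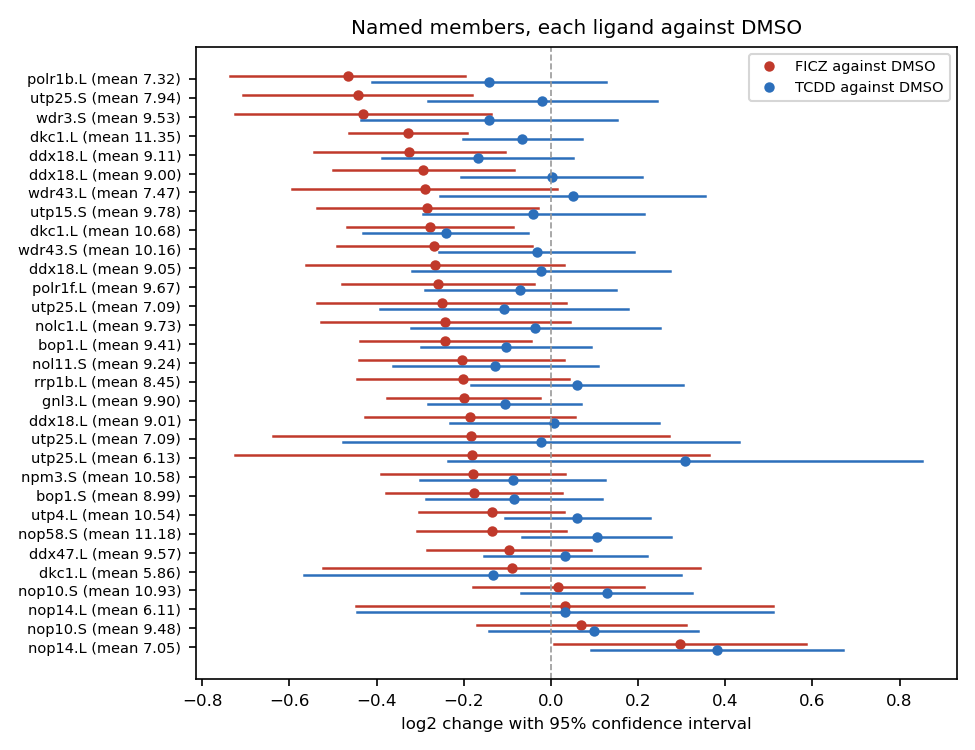
Log2 change with its 95% confidence interval (horizontal axis) for the 31 member probe sets named for FICZ against DMSO, each labelled with its mean level over 9 arrays. The upper, red point of a row is FICZ against DMSO and the lower, blue point TCDD against DMSO, which share the DMSO arrays; the dkc1.L probe set with mean 11.35 has the narrowest intervals, and its FICZ change is the one that passed the test.

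With TCDD against DMSO 52 of 89 members, 58.4%, had a negative change, against 49.5% of all tested probe sets, and the median was -0.02. None of the 89 was called by limma, against 0.0258% of all tested probe sets, and at an unadjusted p under 0.05 there was 1 member lower and 1 higher, against 1.25% lower and 2.18% higher of all tested probe sets. Members without overlap numbered 3 lower, or 3.37% against 3.57% of all tested probe sets, and 2 higher, or 2.25% against 4.24%. The share lower was near the background, and the share higher was under it. The members lower without overlap were the dkc1.L probe set of middle brightness (-0.24), polr1b.L (-0.14) and bop1.L (-0.10), whose arrays are given above. Those higher were nop14.L (0.38) and nop58.S (0.10), and the adjusted p of all 5 was 0.97.

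The dkc1.L probe set that fell with FICZ had a change of -0.07 with TCDD, with a 95% confidence interval of -0.20 to 0.07. By role, 3 of 5 box H/ACA, 1 of 5 box C/D, 17 of 36 processome, 13 of 19 large subunit, 7 of 10 polymerase and 11 of 14 chaperone probe sets were negative with TCDD. Group medians were between -0.07 and 0.02. The smallest p in large subunit assembly was that of a ddx18.L probe set (-0.17), and among chaperones that of ddx21.L, a nucleolar helicase (-0.10), both with an adjusted p of 0.97.

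The share of negative members with TCDD turned on single arrays. It was 33.7% without TCDD replicate 1, 78.7% without TCDD replicate 2 and 47.2% without DMSO replicate 2, and the median change was 0.04, -0.06 and 0.01 in these fits. Without TCDD replicate 2, 10.1% of members were lower without overlap, against 5.62% of all tested probe sets. The shares were near the background without DMSO replicate 1, at 8.99% of members against 9.83%, and without DMSO replicate 3, at 10.1% against 9.05%. They were under it without TCDD replicate 1 (4.49% against 10.2%), TCDD replicate 3 (3.37% against 5.78%) and DMSO replicate 2 (4.49% against 9.49%). Members higher without overlap were 12.4% without TCDD replicate 1, against 11.8% of all tested probe sets, and 4.49% without DMSO replicate 2, against 8.94%. That share was 2.25% without TCDD replicate 2 (against 6.58%) and without TCDD replicate 3 (against 6.30%). It was 3.37% without DMSO replicate 1 (against 10.6%) and without DMSO replicate 3 (against 10.2%).

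Set directly against TCDD at the same dose and time, FICZ gave a negative difference in 83 of 89 members, 93.3%, against 51.5% of all tested probe sets. This comparison uses the same FICZ arrays as FICZ against DMSO, so its results are not independent of those. The median difference was -0.09 and the range -0.49 to 0.05. None was called by limma, against 0.207% of all tested probe sets. At an unadjusted p under 0.05, 9 members were lower and 0 higher, against 1.27% lower and 1.82% higher of all tested probe sets. FICZ arrays were below all TCDD arrays in 14 members, 15.7%, against 5.14% of all tested probe sets, and above them in 0, against 5.12%. Every one of the 19 large subunit probe sets and 35 of the 36 processome probe sets had a negative difference.

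The largest differences without overlap between FICZ and TCDD were in utp25.S (-0.42, adjusted p 0.50), wdr43.L (-0.34), polr1b.L (-0.33), a ddx18.L probe set (-0.29), the brightest dkc1.L probe set (-0.26) and rrp1b.L (-0.26). For wdr43.L the arrays read 7.30, 7.19 and 7.30 with FICZ and 7.35, 7.80 and 7.65 with TCDD, so that TCDD replicate 1 stood just above the nearest FICZ arrays. The interval of the dkc1.L difference was -0.40 to -0.12, with an adjusted p of 0.23. In box C/D, nop58.S differed by -0.24 (adjusted p 0.87), and among chaperones a probe set of npm3.S by -0.19. A p above the threshold does not show that the ligands act alike on these genes.

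Leaving out any FICZ or TCDD array raised the count of probe sets lower with FICZ without overlap, among members and among all tested probe sets. Here too the count could not have fallen. Without TCDD replicate 1 FICZ arrays were below TCDD arrays in 58 members, 65.2%, against 16.8% of all tested probe sets. The number was 22 without FICZ replicate 1, or 24.7% against 10.8%, and 28 without FICZ replicate 3, or 31.5% against 10.4%. It was 19 without FICZ replicate 2 (21.3% against 8.74%). Without TCDD replicates 2 and 3 in turn it was 15 (16.9% against 8.12%) and 16 (17.98% against 7.85%). limma with array weights called 12 members in this comparison, all lower with FICZ, or 13.5% of members against 3.06% of all tested probe sets, and TCDD replicate 3 had the highest weight of the 9 arrays.

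Over all 89 tested members, the median deviation from each probe set's 9-array mean was -0.07, -0.08 and -0.06 in the 3 FICZ arrays. It was -0.06, 0.11 and 0.06 in the TCDD arrays and -0.0029, 0.11 and 0.06 in the DMSO arrays. All FICZ arrays were thus below all DMSO arrays, and TCDD replicate 1 lay within the range of the FICZ arrays. The members' median also moved between arrays of a single treatment, from -0.06 to 0.11 with TCDD. On the deposited values without quantile normalization DMSO replicate 3 had a median deviation of -0.05 and lay within the range of the FICZ arrays, -0.14 to -0.03. The same median over all 11618 tested probe sets stayed between -0.01 and 0.01 on every array after normalization.

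**Figure D5:**
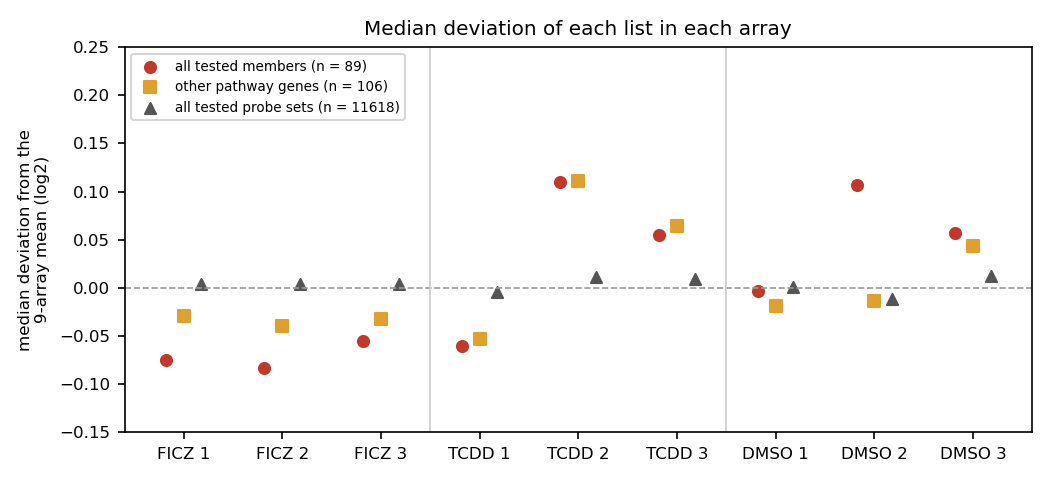
Median deviation of log2 signal from each probe set's 9-array mean (vertical axis) on each array, for the 89 tested members (circles), 106 probe sets of other ribosome biogenesis genes (squares) and all 11618 tested probe sets (triangles). Members are at -0.08 to -0.06 in FICZ arrays, -0.06 to 0.11 in TCDD arrays and -0.0029 to 0.11 in DMSO arrays, while all tested probe sets stay near 0.

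Probe sets and copies of a gene mostly shared the sign of their change with FICZ. Among 13 genes with more than 1 tested probe set, 11 had changes of a single sign with FICZ against DMSO. The number was 6 with TCDD against DMSO and 9 with FICZ against TCDD. Of 12 genes with both copies tested, 11 had both copies negative with FICZ against DMSO. That number was 6 with TCDD against DMSO and 11 with FICZ against TCDD. Since most members were negative with FICZ, unrelated probe sets would often share that sign too, so these counts do not measure agreement between copies. The largest gap between copies with FICZ was 0.26, in utp25. With the brightest probe set standing for each of 70 genes, 61 genes, 87.1%, were negative with FICZ against DMSO. Cross-binding between copies was not tested.

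A wider list of ribosome biogenesis genes outside the rule had 106 tested probe sets. With FICZ against DMSO 63 of them, 59.4%, were negative, against 50.5% of all tested probe sets, with a median of -0.05. Of these 106, 0 were called, against 0.603%, while 14, or 13.2%, were lower without overlap, against 5.96%, and 4, or 3.77%, were higher without overlap, against 6.28%. With TCDD against DMSO 44, 41.5%, were negative, against 49.5% of all tested probe sets, with a median of 0.03. With FICZ against TCDD 74, 69.8%, were negative, against 51.5%, with a median of -0.07. Again 0 were called in either comparison, against 0.0258% of all tested probe sets with TCDD against DMSO and 0.207% with FICZ against TCDD. The large subunit genes among them were 30 of 41 negative with FICZ against DMSO, with a median of -0.09, and the nucleases that trim ribosomal RNA 7 of 17, with a median of 0.04.

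The smallest p values in this wider list with FICZ against DMSO were those of pdcd11.L (-0.31, adjusted p 0.24) and ppan.S (-0.34, adjusted p 0.26), followed by pwp2.S (-0.26) and rcl1.S (-0.22). Pdcd11, pwp2 and rcl1 act on the small subunit precursor and ppan on the large. For pdcd11.L the levels were 10.29, 10.43 and 10.39 in FICZ arrays, 10.52, 10.47 and 10.55 in TCDD arrays, and 10.65, 10.88 and 10.53 in DMSO arrays. FICZ arrays were the 3 lowest of the 9. The gene max encodes a partner of MYC, and tgs1 an enzyme that modifies the cap of some small nucleolar RNAs. With TCDD against DMSO the smallest p values were those of max.S (0.28), tgs1.L (0.25), pdcd11.L (-0.17) and ppan.S (-0.18). With FICZ against TCDD they were those of ddx24.L (-0.27), rpf1.L (-0.22), mphosph10.L (-0.18) and nmd3.L (-0.18), and none passed the test.

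The 5 probe sets of myc.L and myc.S, looked at after the other values were seen, had changes from -0.23 to 0.09 with FICZ against DMSO. Averaged over both ligands against DMSO, 68 of the 89 members, 76.4%, were negative, against 50.4% of all tested probe sets. The median was -0.07, and 0 were called, against 0.224% of all tested probe sets. Taken singly, FICZ gave 86.5% negative members and TCDD 58.4%, so the average does not show a change shared by both ligands.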

How the data were processed

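RNA of XLK-WG cells was hybridised to 9 Affymetrix Xenopus arrays, 3 for each treatment. The values that the authors deposited are log2 signals with a minimum of 0. Their base was read from the range, since the highest, 13.63, would be a linear signal of 12651. The submitters' processing notes name GCOS without a version, and no source used here gives its algorithm, scaling or log step. The deposited array medians lay between 6.67 and 6.87, and 20 to 52 probe sets of each array were at the minimum. Whether a probe set was above background is unknown here. Arrays have no read depth, and their number limits the precision.

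The values of all but 120 control probe sets were quantile normalized, and those averaging under the 25th percentile were left untested. In limma 3.58.1 (R 4.3.3) the model held 3 group means over the 9 arrays, by lmFit and by eBayes with a variance trend (6 residual degrees of freedom and 7.82 from the prior). Two-sided p values were adjusted by Benjamini-Hochberg across the 11618 tested probe sets, with a threshold of 0.05. Python 3.11.15 with pandas 2.3.3, numpy 2.4.6 and matplotlib 3.10.9 did the rest. The procedure was tested on simulated data, in which probe sets varied independently and the changes were larger than those of any member. That test does not show how often changes as small as the members' would be called. Alternatives were no quantile normalization, cyclic loess, other filters, other variance estimates, array weights, a replicate block, pairs of groups alone, 1 probe set per gene and arrays left out.

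The members and lists were chosen with earlier results of these data known, so no list was tested. Named genes were members past the threshold, up to 6 per direction without overlap by size, dkc1 and its partners, the smallest p of each role group, other probe sets of named genes (for FICZ against DMSO only), and 4 other pathway genes by smallest p per comparison. Promoter motifs were not examined, and no sequence or coordinates are given, since no sequence table was used here. The gene identifier of each probe set comes from the platform annotation, which can be old. Symbols were taken from the reference gene table where it named that identifier, and otherwise from the platform annotation. FICZ replicates are numbered by their titles, which differ from the numbers in their descriptions.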

Additional observations from a re-analysis of the deposited data

How the results depend on the processing

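The number of members called with FICZ against DMSO was 1 under cyclic loess, no filter, a filter at the 50th percentile and array weights. That was 1.12%, 1.10%, 1.19% and 1.12% of members, against 0.611%, 0.420%, 0.697% and 1.33% of all tested probe sets. Under array weights the members' share was thus not above the background. The number was 0 on deposited values without quantile normalization, without the variance trend, without a shared variance prior and with 2 groups alone. In these fits 0.482%, 0.344%, 0.0344% and 0.422% of all tested probe sets were called. With arrays left out the number of members called was 0 to 1, while 0.224% to 0.775% of all tested probe sets were called. Array weights called 12 members with FICZ against TCDD, or 13.5% against 3.06% of all tested probe sets, with TCDD replicate 3 carrying most of its group's weight. No alternative called a member with TCDD against DMSO, where at most 0.189% of all tested probe sets were called.

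The share of negative members ran from 74.2% to 86.5% with arrays left out for FICZ against DMSO, from 33.7% to 78.7% for TCDD against DMSO and from 79.8% to 96.6% for FICZ against TCDD. Under array weights it was 34.8% for TCDD against DMSO and 62.9% for the mean of both ligands against DMSO. Over all alternatives the median change of members stayed between -0.13 and -0.09 for FICZ against DMSO, -0.06 and 0.04 for TCDD against DMSO, and -0.14 and -0.05 for FICZ against TCDD. The cause of these shifts was not tested.

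Some named probe sets that passed no test changed sign. With arrays left out, the dimmest dkc1.L probe set ran from -0.28 to 0.096 for FICZ against DMSO, from -0.27 to 0.053 for TCDD against DMSO and from -0.057 to 0.20 for FICZ against TCDD, where it was -0.033 on deposited values. The dkc1.L probe set of middle brightness ran from -0.12 to 0.031 for FICZ against TCDD. The dimmer nop10.S probe set ran from -0.084 to 0.15 for FICZ against DMSO, with -0.050 under array weights, from -0.033 to 0.18 for TCDD against DMSO, with -0.029, and from -0.060 to 0.015 for FICZ against TCDD. The brighter nop10.S probe set ran from -0.065 to 0.10 for FICZ against DMSO, with -0.015 under array weights. In the same comparison the dimmer nop14.L probe set ran from -0.26 to 0.26, with -0.060 on deposited values. The 2 utp25.L probe sets that overlapped ran from -0.41 to 0.31 and from -0.40 to 0.030, with 0.027 and 0.12 under array weights.

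Same-numbered arrays had correlations of their deviations from -0.27 to 0.48 under the numbers in the titles, and not every pair was above 0.1, so the arrays were not treated as paired. TCDD and DMSO arrays numbered 1 correlated at 0.48 and those numbered 2 at 0.27, and the other FICZ numbering, from the descriptions, was not checked. With the replicate block 1 member was called with FICZ against DMSO, the same dkc1.L probe set (adjusted p 0.040), and 0 in the other comparisons. Of all tested probe sets 0.757% were called with FICZ against DMSO in that fit. The share was 0.0344% with TCDD against DMSO, 0.241% with FICZ against TCDD and 0.232% with the mean of both ligands against DMSO. With 3 arrays a group an exact test cannot go below p = 0.1, so calls rest on the variance shared across probe sets, and small changes of dim probe sets were not resolved.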
